A study of Mus musculus with 6 samples.

Results

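The mitochondrial ribosomal protein genes of mouse islets were compared between Bcas2 conditional knockout (cKO) and control libraries. Members were the protein-coding genes whose names begin with Mrpl or Mrps followed by a digit, 78 of the 54532 genes in the deposited table. The rule uses names and no measured value. Of the 78, 77 had a mean of at least 1 FPKM (a read count scaled to the length of the gene and the depth of the library) over the libraries and were tested among 13723 genes. The remaining member, Mrpl53, was listed at 0 in every library.

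RNA-seq was available for 3 Bcas2 cKO libraries (numbers 3, 4 and 5) and 3 control libraries labelled wild type (numbers 1, 3 and 4). The labels describe the material as beta cells of pancreatic islets, which make insulin. BCAS2 belongs to the Prp19 complex of the spliceosome, and the series text calls its reduction a knockdown. The sources used here give no Cre driver, no deleted part of Bcas2 and no age or sex of the mice. Separate animals are not stated for the libraries, so p-values here reflect the spread among these libraries alone, and that spread may be technical.

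The mitochondrial ribosome translates the messages of the mitochondrial genome, which encode core subunits of the respiratory chain and of ATP synthase. Its rRNAs are made in the mitochondrion, whereas all its proteins are encoded in the nucleus, translated in the cytosol and imported. Some of its proteins have bacterial counterparts and others are specific to mitochondria. In beta cells, ATP from respiration closes the potassium channels that couple glucose to insulin release.

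Reads on genes, recovered from the FPKM, came to 16351800 to 16904326 per Bcas2 cKO library and 15170439 to 15594871 per control library. Bcas2 itself was 8.76, 8.40 and 9.14 FPKM in Bcas2 cKO libraries 3, 4 and 5, and 10.3, 15.04 and 11.2 FPKM in control libraries 1, 3 and 4. The groups did not overlap, but the log2 fold change of -0.42 (SE 0.13) missed the threshold (limma adjusted p 0.083; 2-sided exact permutation p = 0.1, the smallest that 3 against 3 libraries allow). All 10 listed beta cell markers were detected, with a summed level of 108890 to 128740 FPKM in Bcas2 cKO and 166110 to 265530 FPKM in control, and 3 of the 10 fell (30%, against 7.55% of all tested genes; 6 were lower and 1 higher by voom, limma's model for read counts). Of 16 acinar markers tested (of 17 in the table), 6 rose and none fell by the same limma test (37.5% higher, against 6.97% of all tested genes). At an unadjusted limma p under 0.05, 15 of these markers were higher and 0 lower, against 14.5% and 17.0% of all tested genes. By voom 15 were likewise higher and 0 lower, against 12.7% and 4.02% of all tested genes. Their summed level was 11208 to 34689 FPKM in Bcas2 cKO and 3680 to 9005 FPKM in control, and none was at 0 in every library. Of 8 macrophage and lymphocyte markers tested, 5 rose and none fell (62.5% higher, against 6.97%; 6 higher and 0 lower by voom), with a summed level of 107 to 128 FPKM in Bcas2 cKO and 86.8 to 111 FPKM in control. Of 8 alpha, delta and PP cell markers tested, 1 rose and none fell (12.5% higher, against 6.97%). By voom 3 of them were higher and 0 lower. Their summed level was 36359 to 38896 FPKM in Bcas2 cKO and 31173 to 36649 FPKM in control. No ductal, endothelial or stellate marker was called by limma. The part of these cell types in the results that follow was not tested. In bulk RNA, fewer cells of a type and less RNA per cell cannot be told apart.

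The promoters of Mrpl33, Mrpl34 and Mrps33, the members that fell in Bcas2 cKO, are shown with that of Mrpl27, a member called higher under some other settings only. Sequences are from RefSeq (GRCm38.p6), 5′ to 3′ on the strand of the gene, from 250 bases before the RefSeq start to 30 bases from it. Capitals mark the letters CCGGAAG, the core of sites bound by ETS factors such as GABP, which is known to act on nuclear genes for mitochondrial proteins. They were searched on both strands. The windows lie at chr5:31613701-31613980 (plus strand) for Mrpl33, chr8:71464676-71464955 (plus) for Mrpl34, chr6:39810907-39811186 (minus) for Mrps33 and chr11:94653541-94653820 (plus) for Mrpl27. The RefSeq start of Mrpl33 lies inside the longer interval that the deposited table gives for the gene.
Mrpl33: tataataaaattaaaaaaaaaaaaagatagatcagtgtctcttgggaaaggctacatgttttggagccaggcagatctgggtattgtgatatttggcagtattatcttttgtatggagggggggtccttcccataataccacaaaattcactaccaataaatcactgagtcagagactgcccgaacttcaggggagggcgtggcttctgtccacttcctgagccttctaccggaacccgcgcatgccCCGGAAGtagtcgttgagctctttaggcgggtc
Mrpl34: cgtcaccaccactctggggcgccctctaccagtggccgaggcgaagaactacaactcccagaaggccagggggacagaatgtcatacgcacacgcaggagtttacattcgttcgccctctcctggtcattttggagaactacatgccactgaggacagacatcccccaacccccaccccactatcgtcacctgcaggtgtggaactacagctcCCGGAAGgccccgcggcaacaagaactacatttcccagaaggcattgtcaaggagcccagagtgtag
Mrps33: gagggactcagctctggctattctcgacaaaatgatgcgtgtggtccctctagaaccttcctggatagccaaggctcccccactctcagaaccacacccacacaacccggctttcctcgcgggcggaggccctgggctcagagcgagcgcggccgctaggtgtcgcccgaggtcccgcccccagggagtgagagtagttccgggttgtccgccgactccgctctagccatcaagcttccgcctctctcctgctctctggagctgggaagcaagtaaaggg
Mrpl27: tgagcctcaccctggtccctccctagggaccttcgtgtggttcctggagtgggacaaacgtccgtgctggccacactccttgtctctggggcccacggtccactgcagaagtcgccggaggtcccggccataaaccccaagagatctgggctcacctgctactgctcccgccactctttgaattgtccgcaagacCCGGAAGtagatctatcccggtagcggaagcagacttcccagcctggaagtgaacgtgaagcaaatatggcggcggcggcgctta
The match begins 3 bases before the start in Mrpl33, 37 before it in Mrpl34 and 55 before it in Mrpl27. Mrps33 had no match in this window.

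Of the 78 members, 69 had an entry in the promoter table. The letters CCGGAAG stood in the window of 24 of these (34.8%), against 19.6% of 9033 tested protein-coding genes with an entry. The core of sites of the factor NRF1 (GCGCA and GCGC with any base between them) stood in 13 (18.8%), against 11.5%. The TATA box letters TATAAA stood in 5 (7.25%), against 8.18%. A gene counted when any of its listed starts had the letters. Tested members with the ETS letters had a median log2 fold change of 0.01 (n = 23) and those without them -0.03 (n = 45). For the NRF1 core the medians were -0.09 with it (n = 13) and -0.03 without it (n = 55). These differences were not tested.

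Many members start close to a gene on the opposite strand. The order of the starts was not part of the rule, so some pairs overlap at their starts. In GENCODE M21, 33 of the 78 (42.3%) had the start of a protein-coding gene on the opposite strand within 1000 bases, against 16.6% of 11430 tested protein-coding genes. Mrps11 and Mrpl46 face each other on chromosome 7 and share 173 exon bases. Among the other 31 partners 25 were tested, of which 1 rose and 2 fell, against 6.97% and 7.55% of all tested genes. Ppp1r10, facing Mrps18b, rose (log2 fold change 0.56, limma adjusted p 0.048). Wdfy1, facing Mrpl44 (-0.39, limma adjusted p 0.025), and Ndufb5, facing Mrpl47 (-0.36, limma adjusted p 0.038), fell. In 12 of the 25 pairs the member and its partner had the same sign of change. Whether counting used strand is not stated in the sources used here, and 33 members share some exon bases with another gene, so reads of such pairs may not be fully separated.

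The members spanned a mean level of 1.5 FPKM for Mrps25 to 37.0 FPKM for Mrps21, with a median of 7.12 FPKM. The 5 highest were Mrps21, the small subunit counterpart of bacterial S21, Mrps12, a protein of the decoding centre, and the large subunit genes Mrpl2, Mrpl54 and Mrpl24. Mrps21 held 32.1, 34.1 and 34.4 FPKM in Bcas2 cKO libraries 3, 4 and 5, and 37.6, 42.2 and 41.5 FPKM in control libraries 1, 3 and 4. Its groups did not overlap, but its log2 fold change of -0.26 (SE 0.08) missed the threshold (limma adjusted p 0.072), which it passed with library weights (0.038). Mrps12 held 23.7, 35.6 and 19.6 FPKM in Bcas2 cKO, and 30.5, 36.8 and 29.1 FPKM in control, so that Bcas2 cKO library 4 lay among the controls. Mrpl2 averaged 26.1 ± 2.61 FPKM in Bcas2 cKO and 23.4 ± 0.852 FPKM in control, and Mrpl24 22.4 ± 1.34 FPKM in Bcas2 cKO and 21.4 ± 1.27 FPKM in control (SD, n = 3 each). Mrpl54 averaged 22.5 ± 1.31 FPKM in Bcas2 cKO and 23.2 ± 5.35 FPKM in control, where library 3 stood at 29.3 FPKM.

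These levels depend on the gene length in the table, which for 73 of the 78 members equals the union of all annotated exons in GENCODE M21. That union was over 2 times the length of the principal transcript for 19 tested members, and 15.3 times for Mrpl33. Read per length of the principal transcript in place of the union, the highest mean levels were 57.5 for Mrpl52, 56.0 for Mrps21 and 48.4 for Mrpl33 on the FPKM scale, and Mrpl33 ranked 3 in place of 64 among the members. Such values assign every read of a gene to its principal transcript, which was not tested. The fold changes depend on the gene length only through the pseudocount, which weighs most on a gene of low FPKM such as Mrpl33. Individual members held 58 to 926 reads per library, the fewest for Mrps6 and the most for Mrpl24.

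Between Bcas2 cKO and control, 3 of the 77 tested mitochondrial ribosomal protein genes differed past the threshold. Mrpl33 and Mrpl34 of the large subunit and Mrps33 of the small subunit fell, which is 3.90% of the tested members against 7.55% of all tested genes. No member rose, against 6.97% of all tested genes (limma on log2(FPKM + 1) with a variance trend, Benjamini-Hochberg adjusted p under 0.05). At an unadjusted limma p under 0.05, 4 members were higher and 9 lower, against 14.5% and 17.0% of all tested genes. Voom called 2 members higher and 1 lower on the recovered reads, against 12.7% and 4.02% of all tested genes. The median log2 fold change was -0.03 over the members and -0.03 over all tested genes.

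Mrpl33, the counterpart of bacterial L33 (ENSMUSG00000106918, chromosome 5, 31596935 to 31664384, GRCm38), held 2.45, 1.94 and 2.63 FPKM in Bcas2 cKO libraries 3, 4 and 5, and 3.28, 4.37 and 4.28 FPKM in control libraries 1, 3 and 4. The highest Bcas2 cKO value lay under the lowest control value. The means were 2.34 ± 0.357 FPKM in Bcas2 cKO and 3.98 ± 0.606 FPKM in control (SD, n = 3 each). Their ratio was 0.588, and the log2 fold change -0.57 with an SE of 0.13 (limma adjusted p 0.031). The gene shares 3.56% of its exon bases with the transcript Gm43809 on the same strand, and the gene total does not tell its annotated transcripts apart.

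Mrpl34, the counterpart of bacterial L34 (ENSMUSG00000034880, chromosome 8, 71464959 to 71465747), held 15.3, 19.7 and 16.5 FPKM in Bcas2 cKO, and 22.6, 27.9 and 23.4 FPKM in control. The groups did not overlap. The log2 fold change was -0.50 (SE 0.12, limma adjusted p 0.037) and the ratio of the means 0.695.

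Mrps33, a small subunit protein specific to mitochondria (ENSMUSG00000029918, chromosome 6, 39801804 to 39810988), held 11.8, 13.2 and 13.4 FPKM in Bcas2 cKO, and 15.1, 20.4 and 18.9 FPKM in control. Here too the groups did not overlap, control library 1 being the nearest to Bcas2 cKO. The log2 fold change was -0.46 (SE 0.12, limma adjusted p 0.047) and the ratio of the means 0.707. Neither Mrpl34 nor Mrps33 shares exon bases with another gene in GENCODE M21.

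All 3 calls lay near the threshold. They were kept with a pseudocount of 0.1 FPKM, with quantile normalization and with library weights. Rescaling without the hormone genes also kept them (limma adjusted p 0.029 to 0.036). Mrpl33 lost its call without control library 3 or 4 or any of the 3 Bcas2 cKO libraries (limma adjusted p 0.059 to 0.097), and Mrps33 without the same 5 libraries (0.099 to 0.14). Mrpl34 lost its call without control library 3 or 4 or Bcas2 cKO library 3 or 5 (limma adjusted p 0.086 to 0.12). The direction was the same in each of these fits. With the libraries rescaled to equal totals outside the mitochondrial genome, which raised the median change over all genes to 0.09 (log2), all 3 missed the threshold (limma adjusted p 0.052 to 0.060), and Mrpl27, Mrps15 and Mrps5 passed it upwards. All 3 also missed it with every gene of a mean above 0 tested (limma adjusted p 0.088 to 0.10). With voom Mrpl33 kept its call, while Mrpl34 and Mrps33 did not (voom adjusted p 0.099 and 0.072). Mrps33 also missed it without the variance trend (0.058). Counts over all genes moved with them, 957 higher and 1036 lower as deposited against 1409 higher and 428 lower with that rescaling and 1744 and 551 with voom.

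**Figure D1:**
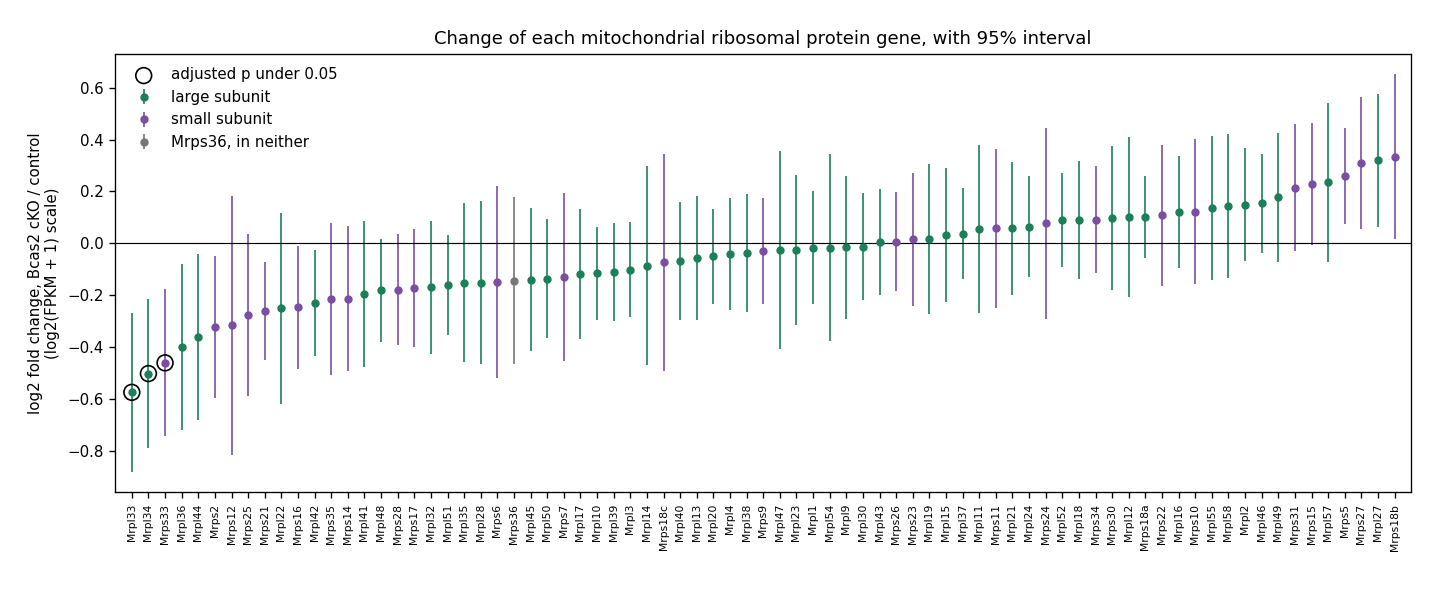
Log2 fold change, Bcas2 cKO over control on the log2(FPKM + 1) scale, of each of the 77 tested members with its 95% limma interval, coloured by ribosomal subunit. Mrpl33, Mrpl34 and Mrps33 (circled) passed the test, and all points lie between -0.57 and 0.33.

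**Figure D2:**
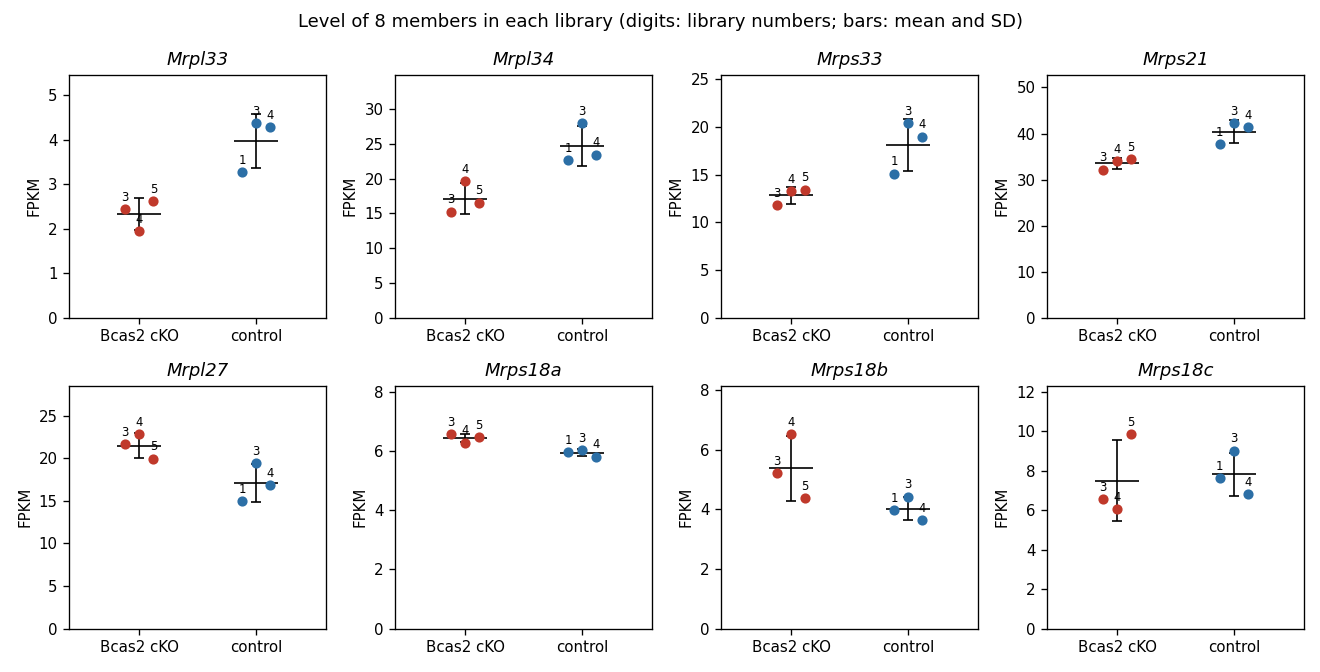
FPKM of 8 members in each library, Bcas2 cKO in red and control in blue, with mean and SD (n = 3 each). Mrpl33, Mrpl34 and Mrps33 lie lower in every Bcas2 cKO library, while Mrps18c overlaps between the groups.

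The changes of the members were small and close to one another. Their log2 fold changes ran from -0.57 for Mrpl33 to 0.33 for Mrps18b, with an SD of 0.19, against an SD of 0.44 over all tested genes. The SD was 0.42 over the 11348 other tested genes whose mean level lay in the range of the members. An absolute log2 fold change under 0.25 was found for 63 members (81.8%), 61.2% of all tested genes and 62.4% of the other genes in that range. Those genes were not matched to the members by level within the range. For all 77 members the 95% interval lay within -1 to 1, that is within a 2-fold change on this scale, as it did for 86.9% of all tested genes. With a pseudocount of 0.1 FPKM it did so for 76 members. The interval lay within -0.5 to 0.5 for 62 members, against 52.9% of all tested genes.

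**Figure D3:**
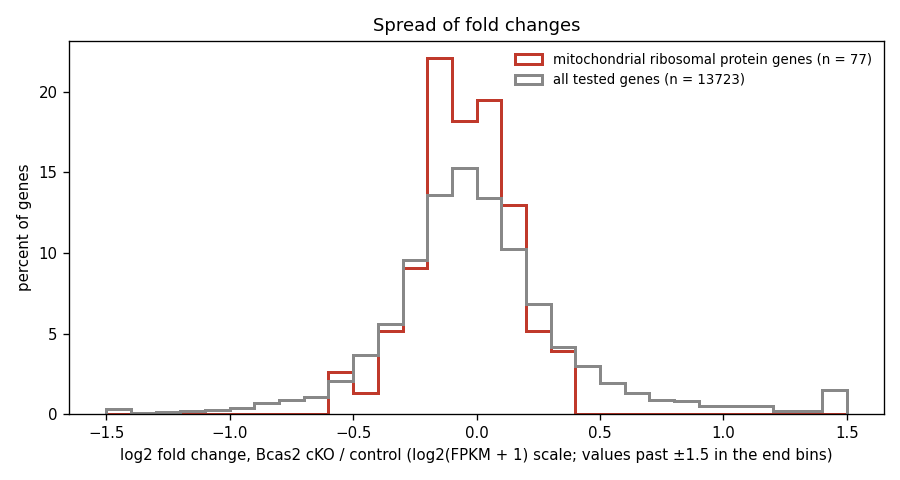
Percent of genes by log2 fold change, Bcas2 cKO over control, for the 77 tested members (red) and all 13723 tested genes (grey). The members lie between -0.57 and 0.33, with no tail beyond those values.

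The groups did not overlap for 14 members in the lower direction (18.2%, against 21.1% of all tested genes) and for 6 in the higher direction (7.79%, against 16.8%). The remaining 57 overlapped, while in either direction 38.0% of all tested genes did not overlap. Several members outside the rule for naming genes are given here because their unadjusted p was under 0.05, and were chosen after their values were seen. Of these, Mrpl36, the counterpart of bacterial L36, held 14.4, 19.3 and 17.7 FPKM in Bcas2 cKO, and 21.9, 26.3 and 20.5 FPKM in control. Its groups did not overlap, with a log2 fold change of -0.40 (limma adjusted p 0.095). Mrpl44, which has an RNase III-like fold, had a log2 fold change of -0.36 (limma adjusted p 0.12), Mrps2 of -0.32 (0.11), Mrps16 of -0.25 (0.15) and Mrpl42 of -0.23 (0.12). None of these 5 passed the test.

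In the other direction, Mrpl27, counterpart of a bacterial protein that lies near the peptidyl transferase centre, held 21.7, 22.8 and 19.95 FPKM in Bcas2 cKO, and 15.0, 19.4 and 16.9 FPKM in control. Its lowest Bcas2 cKO value lay above its highest control value, and the log2 fold change was 0.32 (SE 0.11, limma adjusted p 0.095). Mrps5 averaged 5.05 ± 0.028 FPKM in Bcas2 cKO and 4.06 ± 0.324 FPKM in control (log2 fold change 0.26, limma adjusted p 0.071). Mrps27, a pentatricopeptide repeat protein of the small subunit, averaged 4.89 ± 0.700 FPKM in Bcas2 cKO and 3.74 ± 0.25 FPKM in control (0.31, limma adjusted p 0.0999; SD, n = 3 each). None of the 3 passed the test as deposited. Mrps27 shares 24.2% of its exon bases with 6430562O15Rik and Mrpl27 shares 7.61% with Eme1, both on the opposite strand. Mrps5 shares none.

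Both subunits gave like values. The 50 tested proteins of the large subunit had a median log2 fold change of -0.03, with 20 above 0 and 30 below it as deposited, and 2 fell. The 26 of the small subunit had a median of -0.05, with 12 above 0 and 14 below it, and 1 fell. Of all tested members 3.90% fell, against 7.55% of all tested genes. Mrps30, named for the small subunit, and Mrps18a are counted with the large one, where structures place them. Summed over the large subunit, levels were 465, 511 and 476 FPKM in Bcas2 cKO libraries 3, 4 and 5, and 476, 552 and 476 FPKM in control libraries 1, 3 and 4. Over the small subunit they were 218, 246 and 223 FPKM in Bcas2 cKO, and 237, 271 and 236 FPKM in control. In both sums Bcas2 cKO library 4 lay above control libraries 1 and 4, and the groups overlapped.

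Members with bacterial counterparts (45) had a median of -0.04, and 2 of them fell. Those specific to mitochondria (28) had a median of -0.01, and 1 fell. The same 3 calls are counted here, 3.90% of the tested members against 7.55% of all tested genes. Mrps36, Mrpl12 and Mrpl58 lie outside the rule for naming genes and are given, with their values seen, for their other known roles. Mrps36, since described as a subunit of the 2-oxoglutarate dehydrogenase complex and not of the ribosome, averaged 7.92 ± 0.538 FPKM in Bcas2 cKO and 8.95 ± 1.88 FPKM in control (log2 fold change -0.14, limma adjusted p 0.51; SD, n = 3 each). Mrpl12, which also binds the mitochondrial RNA polymerase, averaged 7.44 ± 0.789 FPKM in Bcas2 cKO and 6.91 ± 1.18 FPKM in control. Mrpl58, a peptidyl-tRNA hydrolase that rescues stalled ribosomes, averaged 6.996 ± 1.20 FPKM in Bcas2 cKO and 6.20 ± 0.424 FPKM in control. Both genes overlapped between the groups.

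The mouse has 3 paralogs related to bacterial S18, which take different places in the ribosome. Mrps18b, of the small subunit, held 5.22, 6.53 and 4.39 FPKM in Bcas2 cKO, and 3.98, 4.43 and 3.65 FPKM in control. Bcas2 cKO library 5 lay below control library 3, and the log2 fold change was 0.33 (SE 0.13, limma adjusted p 0.14), which became 0.21 without Bcas2 cKO library 4. Mrps18a, of the large subunit, held 6.57, 6.28 and 6.47 FPKM in Bcas2 cKO, and 5.96, 6.04 and 5.81 FPKM in control, narrow groups that did not overlap (0.10, SE 0.07, limma adjusted p 0.34). Mrps18c, of the small subunit, held 6.56, 6.07 and 9.86 FPKM in Bcas2 cKO, and 7.62, 9.02 and 6.83 FPKM in control, overlapping widely (-0.07, SE 0.18, limma adjusted p 0.81). None of the 3 passed the test. Mrps18b shares 30.5% of its exon bases with Gm16279 on the opposite strand, and Mrps18c shares 23.2% with Gm43511 on the same strand. Mrps18a shares none.

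Between libraries, the members stood highest in control library 3. It held the highest of the 6 values for 41 of the 77 members, and the lowest for 1. Their median difference from the mean of the 6 libraries was 0.14 there on the log2(FPKM + 1) scale, against 0.03 for all tested genes. In the other 5 libraries it lay between -0.04 and 0.02. The insulin genes Ins1 and Ins2 took 26.7% of the reads in that library, the most of the 6, against 13.3 to 14.6% in Bcas2 cKO and 18.5 and 22.4% in the other controls. The members took 0.147 to 0.161% of all reads in Bcas2 cKO and 0.142 to 0.150% in control. Of the reads outside Ins1 and Ins2 they took 0.184, 0.189 and 0.172% in Bcas2 cKO libraries 3, 4 and 5, and 0.183, 0.203 and 0.183% in control libraries 1, 3 and 4. Without control library 3 the members' median log2 fold change was 0.02, and no member was called (at least 1 call remained without control library 1 or Bcas2 cKO library 4).

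**Figure D4:**
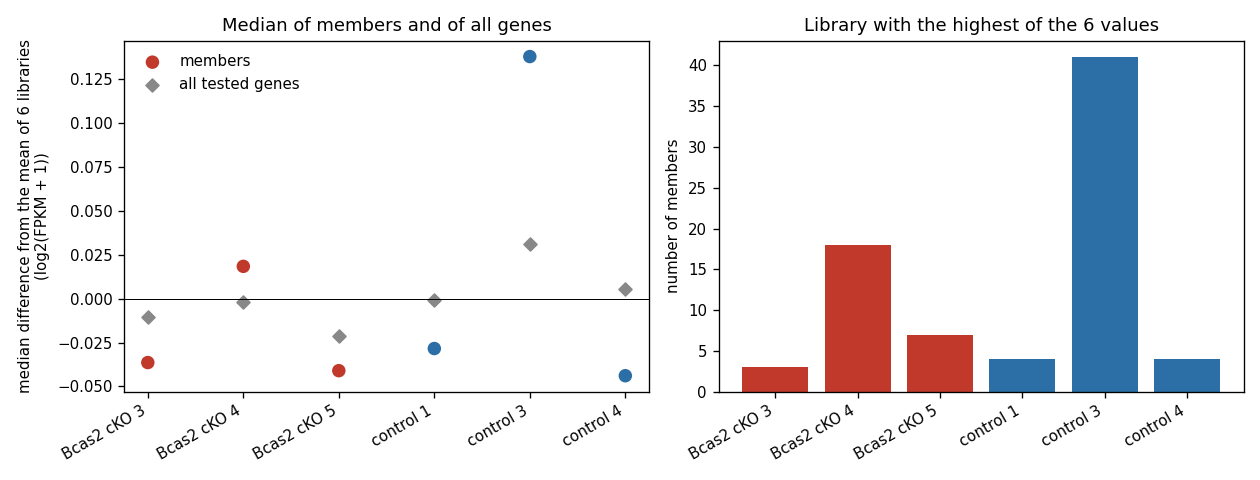
Left, median difference from the mean of the 6 libraries on the log2(FPKM + 1) scale, for the members (circles, red for Bcas2 cKO and blue for control) and for all tested genes (grey diamonds). Right, number of the 77 members whose highest value lies in each library, which is 41 for control library 3.

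**Figure D5:**
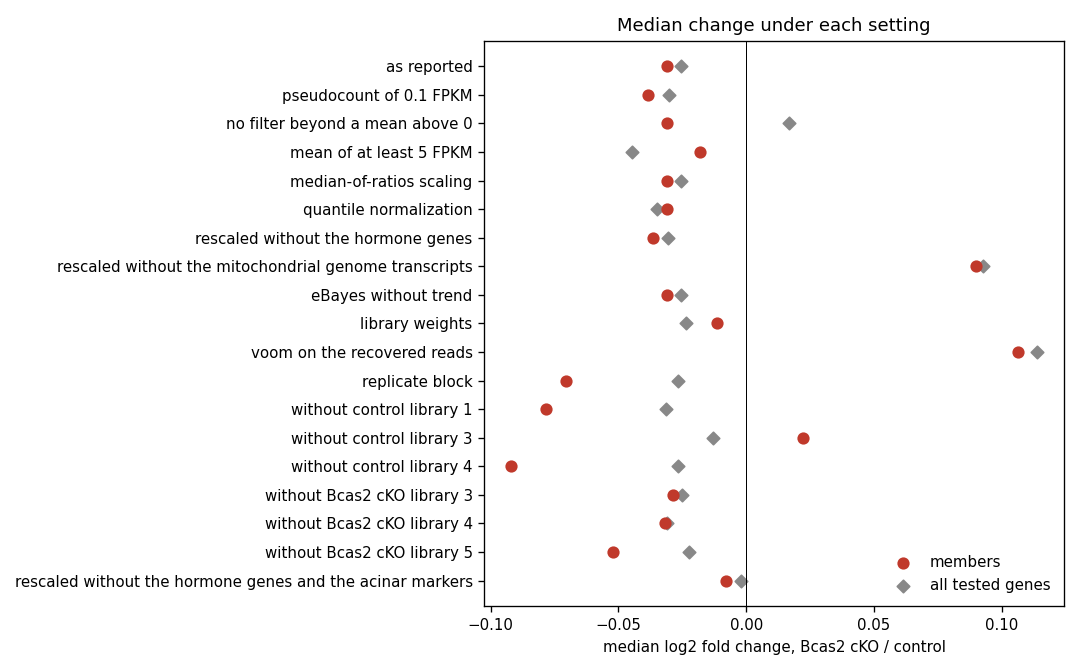
Median log2 fold change, Bcas2 cKO over control, of the tested members (red circles) and of all tested genes (grey diamonds) as reported and under 18 other settings. The median of the members lay between 0.07 below and 0.03 above that of all genes.

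Across the 77 members, those with few exons lay lower. The 19 with at most 3 exons in the principal transcript had a median log2 fold change of -0.17, against -0.08 for 1499 tested protein-coding genes of that kind. The 35 with 4 to 6 exons had a median of 0.02, against -0.03, and the 23 with at least 7 a median of -0.02, against -0.02. Pearson's r of the fold change with exon number was 0.37 across the members and -0.005 across 11430 protein-coding genes. It was 0.05 with transcript length and -0.07 with mean level across the members. All points come from the same 6 libraries, so these values are descriptions.

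Some proteins of the mitochondrial ribosome have genes with other names. Of Dap3, Ptcd3, Chchd1, Aurkaip1 and Gadd45gip1, Gadd45gip1 fell (20%, against 7.55% of all tested genes) and none rose. At an unadjusted limma p under 0.05, 0 were higher and 2 lower, against 14.5% and 17.0% of all tested genes. Voom called 0 in either direction, against 12.7% higher and 4.02% lower. Gadd45gip1 held 7.82, 7.38 and 6.998 FPKM in Bcas2 cKO, and 9.28, 10.7 and 8.95 FPKM in control, without overlap (log2 fold change -0.34, SE 0.09, limma adjusted p 0.047). It lost the call without each library in turn (limma adjusted p 0.068 to 0.14), and under most other scalings and variance models tried. Dap3, a GTP-binding protein of the small subunit, averaged 7.86 ± 0.211 FPKM in Bcas2 cKO and 9.81 ± 1.28 FPKM in control and did not pass the test (-0.28, limma adjusted p 0.10; SD, n = 3 each). Chchd1 averaged 19.5 ± 1.43 and Aurkaip1 18.5 ± 2.14 FPKM in Bcas2 cKO, and 19.7 ± 2.35 and 20.5 ± 3.21 FPKM in control. Ptcd3 averaged 4.42 ± 0.075 FPKM in Bcas2 cKO and 4.47 ± 0.232 FPKM in control. The overlapping groups of these 3 gave log2 fold changes of -0.02, -0.13 and -0.01.

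Genes of ribosome assembly, translation and gene expression in the mitochondrion were called higher by limma at shares of 6.67% to 9.09% in the lists tried, near the 6.97% of all tested genes (12.7% by voom). None of these lists held a gene called lower by limma, against 7.55% of all tested genes. Of 29 tested assembly factors 2 rose (6.90%) and none fell, with a median log2 fold change of -0.01. At an unadjusted limma p under 0.05, 4 were higher and 2 lower, against 14.5% and 17.0% of all tested genes. By voom 3 were higher (10.3%) and 0 lower, against 12.7% and 4.02%. Rbfa, which acts in maturation of the small subunit, held 15.0, 15.9 and 18.6 FPKM in Bcas2 cKO, and 10.9, 11.8 and 8.31 FPKM in control (0.63, SE 0.14, limma adjusted p 0.029). Dhx30, an RNA helicase of mitochondrial RNA granules, held 10.9, 11.8 and 11.1 FPKM in Bcas2 cKO, and 9.003, 8.58 and 8.81 FPKM in control (0.32, SE 0.07, limma adjusted p 0.026). Neither overlapped between groups. Rbfa lost its call without control library 4 or any Bcas2 cKO library (limma adjusted p 0.060 to 0.088), and Dhx30 without control library 3 or 4 or any Bcas2 cKO library (0.060 to 0.084). With every gene of a mean above 0 tested, Rbfa, mt-Rnr1 and Crebbp missed the threshold (limma adjusted p 0.077, 0.058 and 0.086).

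Of 15 tested translation factors and related genes, Oxa1l rose (6.67%, against 6.97% of all tested genes) and none fell, with a median of 0.01. At an unadjusted limma p under 0.05, 2 were higher and 5 lower, against 14.5% and 17.0% of all tested genes. By voom 2 were higher (13.3%) and 0 lower, against 12.7% and 4.02%. Oxa1l, which inserts newly made proteins into the inner membrane and binds the mitochondrial ribosome, held 12.2, 12.4 and 14.5 FPKM in Bcas2 cKO, and 7.48, 8.13 and 6.74 FPKM in control. The groups stood far apart (log2 fold change 0.73, SE 0.10, limma adjusted p 0.007), and the call was kept without each library in turn (0.015 to 0.027). Of 14 genes of mitochondrial DNA and RNA synthesis and processing, Polg2 rose (7.14%, against 6.97%) and none fell, with a median of -0.04. At an unadjusted limma p under 0.05, 3 were higher and 5 lower, against 14.5% and 17.0% of all tested genes. By voom 3 were higher (21.4%) and 0 lower, against 12.7% and 4.02%. Polg2, the accessory subunit of the mitochondrial DNA polymerase, held 5.43, 4.12 and 6.14 FPKM in Bcas2 cKO, and 1.68, 2.30 and 1.67 FPKM in control (1.11, SE 0.15, limma adjusted p 0.007), and kept its call without each library in turn (0.012 to 0.029). Of 11 tested regulators of mitochondrial biogenesis, the coactivator gene Crebbp rose (9.09%, against 6.97%) and none fell, with a median of 0.10 (unadjusted 2 higher and 1 lower, voom 2 higher, 18.2%, and 0 lower). Crebbp averaged 7.04 ± 0.258 FPKM in Bcas2 cKO and 5.28 ± 0.533 FPKM in control (SD, n = 3 each). Its log2 fold change was 0.36 (SE 0.09, limma adjusted p 0.037). The call was lost without control library 3 or 4 or any Bcas2 cKO library (0.076 to 0.12). The other genes at that unadjusted p were Esrra, higher (0.31, limma adjusted p 0.061), and Gabpa, lower (-0.30, 0.0504). Ppargc1a (0.312 FPKM in Bcas2 cKO, 0.671 in control, no overlap) and Ppargc1b (0.741 and 0.783, overlapping) averaged under 1 FPKM and were not tested. All but Crebbp lie outside the rule for naming genes.

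The ribosome these proteins join holds a pair of rRNAs made in the mitochondrion. The small subunit rRNA mt-Rnr1 held 92.8, 114 and 123 FPKM in Bcas2 cKO, and 47.9, 72.5 and 57.7 FPKM in control. Every Bcas2 cKO value lay above every control value, and it rose (log2 fold change 0.89, SE 0.17, limma adjusted p 0.020). That call was lost without control library 4 or Bcas2 cKO library 4 or 5 (limma adjusted p 0.068 to 0.070). The large subunit rRNA mt-Rnr2 held 91.9, 114 and 169.9 FPKM in Bcas2 cKO, and 53.8, 99.2 and 83.3 FPKM in control, with overlap, and did not pass the test (0.66, SE 0.29, limma adjusted p 0.17), though it did with voom (0.029). Its log2 fold change was 0.41 without control library 1, 0.42 without Bcas2 cKO library 5 and 0.17 with a replicate block (limma adjusted p 0.32, 0.37 and 0.67). Libraries were made with an mRNA kit, per the labels' protocols, so these are levels of rRNA in mRNA libraries. None of the 13 messages of the mitochondrial genome passed the limma test (median -0.16). Not all were well measured, and mt-Atp8 held only 1 to 8 reads per library. At an unadjusted limma p under 0.05, 0 messages were higher and 1 lower, against 14.5% and 17.0% of all tested genes. That message was mt-Atp6, without overlap (log2 fold change -0.72, limma adjusted p 0.062). Both genes lie outside the rule for naming genes. By voom 1 message was higher and 1 lower (7.69% each), against 12.7% and 4.02%. The messages of highest level were mt-Co1, a subunit of cytochrome c oxidase (log2 fold change -0.06, limma adjusted p 0.86, above 0 with rescaling without mitochondrial transcripts and with voom), and mt-Cytb of complex III (-0.25, limma adjusted p 0.41). The summed level of the 13 messages was 11847, 12813 and 14198 FPKM in Bcas2 cKO, and 12048, 15344 and 14512 FPKM in control, so the groups overlapped.

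Mrpl53 was listed at 0 in every library although it encodes a subunit of the same ribosome. In GENCODE M21, 695 of its 790 exon bases (88.0%) lie within exons of Gm42688 on the same strand, which held 0.400 to 0.548 FPKM in Bcas2 cKO and 0.357 to 0.608 FPKM in control. The sources used here do not say how reads shared by both genes were counted. Processed pseudogenes of Mrpl48, Mrpl23 and Mrps36 are also in the table. Mrpl48-ps held 1.97 to 3.47 FPKM in Bcas2 cKO and 1.69 to 3.26 FPKM in control, while Mrpl48 held 2.62 to 2.90 FPKM in Bcas2 cKO and 3.12 to 3.44 FPKM in control, so the division of reads between these copies is uncertain.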

How the data were processed

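Per the labels' protocols, Trizol was used for RNA and a SMARTer mRNA-seq kit for the libraries. The genome build was GRCm38 (mm10), per the submitters' processing notes. The sources used here name no aligner, counting program or strand setting. The deposited values are FPKM per gene and library, per the file headers, with gene lengths. The knockout titles are numbered 1, 3 and 4, whereas the knockout columns are numbered 3, 4 and 5. Column 5 was used as a Bcas2 cKO library without a sample of its own, and whether it is the sample titled 1 is unknown. FPKM times gene length gave whole reads for 100% of values above 0 (within 0.01 of a read). The FPKM as deposited imply depths of 0.890 to 1.11 times these totals, so the authors scaled the libraries in a way the sources used here do not state. Pairs of libraries differed by at least 13.6 in chi-square per degree of freedom, so none was a copy.

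Genes averaging 1 FPKM or more were tested on log2(FPKM + 1), which understates the change of low genes, with limma 3.58.1 (trend) in R 4.3.3 over all 13723 genes, and called at a Benjamini-Hochberg adjusted p under 0.05. The fit was tested on simulated data, and no statement here rests on the outcome. Annotation was GENCODE M21 and, for promoters, RefSeq. The principal transcript was the one with the best APPRIS rank, and the longest among equals. Named were every called member, the 5 of highest level, the S18 paralogs, Mrpl53, all genes of the other-named subunit and rRNA lists, and up to 3 called genes of each other list (with none called, the 2 of highest level). The member rule uses names, but it and the lists were chosen with earlier results of these data known. Alternatives were another pseudocount, other filters and scalings, other variance models, voom on recovered reads, a replicate block and leaving out each library.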

Additional observations from a re-analysis of the deposited data

How the results depend on the processing

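With genes of any mean above 0 tested, 628 genes were higher and 516 lower, and 0 members were lower. Quantile normalization and library weights each gave 1 higher member. Rescaling without the mitochondrial genome transcripts gave 428 lower genes, 3 higher and 0 lower members and a members' median of 0.090, and voom 1744 higher and 551 lower genes, 2 higher and 1 lower members and a median of 0.11. These 2 scalings raised the median of all genes to 0.09 and 0.11, so relative to it the members' median differed by -0.003 and -0.008. Both scale the libraries by read totals, the first outside mitochondrial transcripts, in place of the authors' scaling. Mitochondrial transcripts took 1.55 to 1.82% of the reads in each library. Leaving out 1 library gave 466 to 956 higher and 391 to 994 lower genes, 0 to 3 lower members, a members' median of -0.09 to 0.02, and a Bcas2 log2 fold change of -0.52 to -0.27 (limma adjusted p 0.049 to 0.19, the lowest without control library 1). A replicate block on the library numbers gave 352 higher and 186 lower genes and 0 lower members, and it also ended the calls of Gadd45gip1, Rbfa, Dhx30, Oxa1l, Crebbp and mt-Rnr1 (limma adjusted p 0.069 to 0.21). The groups' titles share numbers 1, 3 and 4, but their columns share only 3 and 4, and the deviations of same-numbered libraries correlated at -0.15 and 0.05, so the numbers were not taken as pairs.

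Uncalled genes near 0 changed sign. Mrpl54 was 0.017 (quantile), 0.12 (without mitochondrial transcripts), 0.036 (library weights), 0.13 (voom) and 0.011 (without hormone genes and acinar markers, added after seeing the data). In the same order Chchd1 was 0.018, 0.12, 0.0078, 0.13 and 0.013. Without mitochondrial transcripts and with voom, Mrps18c was 0.054 and 0.061, Aurkaip1 0.0046 and 0.0079, and mt-Co1 0.084 and 0.087. Ptcd3 was 0.11 and 0.13 there and 0.014 without hormone genes and acinar markers. Leaving out 1 library gave -0.13 to 0.16 for Mrpl54, -0.26 to 0.046 for Mrps18c, -0.077 to 0.075 for Chchd1 and -0.046 to 0.012 for Ptcd3. The cause of these shifts was not tested. Mrpl33, Mrpl34 and Mrps33 stayed lower in every setting in which they were tested. Members of low level hold as few as 58 reads in a library, which limits their precision.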
